A study of Mus musculus with 60 samples.

Results

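Toll-like receptors are the sensors by which leukocytes detect molecules of microbes, and they were examined here together with the proteins that work beside them in the spleen leukocytes of young NOD mice and of 2 control strains. The genes were Tlr1, Tlr2, Tlr4, Tlr6, Tlr7 and Tlr9, the coreceptor gene Cd14, the receptor gene Cd180 with its partner Ly86, and the adaptor gene Myd88. Every probe set that the array annotation names for one of these 10 genes, by symbol or alias, was taken: 10 of 18193 named genes, with 15 of the 45037 probe sets on the 2 arrays, and all 15 passed the filter on low signals, which kept 38293 in all. The study compared female NOD mice, an inbred strain that develops autoimmune diabetes on its own, with NON mice, a related strain that resists the disease, and with C57BL/6 (C57) mice, a more distant laboratory strain. Each strain was sampled at 4 weeks and at 2 weeks of age, with 5 mice in each of the 6 groups. All leukocytes were uncultured and untreated, and the RNA of each sample was hybridised to a 430A and a 430B array. The strains differ at many loci, so a strain difference cannot be assigned to any one of them, and whole spleen leukocytes are a mixture of cell types.

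Each Toll-like receptor recognises its own class of ligand. TLR2 forms pairs with TLR1, which bind triacylated bacterial lipopeptides, and with TLR6, which bind diacylated ones. TLR4 senses lipopolysaccharide that CD14 hands over, and TLR7 and TLR9 sit in endosomes, where they sense single-stranded RNA and unmethylated CpG DNA. CD180 resembles TLR4 without its signalling domain, reaches the cell surface with MD-1 (the product of Ly86) and is known from B cells, while MyD88 carries the signal of nearly all Toll-like receptors to kinases and on to NF-kB and interferon regulatory factors. In the spleen these genes are known from B cells, macrophages, monocytes and dendritic cells.

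Expression is given as the MAS 5.0 signal, a linear intensity by which mice can be compared within a probe set, but not one probe set with another. Signals were compared on the scale of log2(signal + 10) with limma, which fits every probe set and shares their spread, and p-values were adjusted by Benjamini-Hochberg over all 38293 kept probe sets, with an adjusted p under 0.05 as the call. The leukocyte marker Ptprc (CD45) had signals between 2531 and 12499 in the 30 mice. The median correlation of a mouse with the others of its group was 0.824 to 0.876, except in NOD replicate 3 of 4 weeks, where it was 0.739. For Gapdh, the signal at the 3' end over that at the 5' end, a measure of RNA integrity, was between 0.74 and 4, and was highest in NON replicate 2 of 2 weeks and, at 3.15, in NON replicate 1 of 4 weeks. In NOD mice it reached 1.3 at 4 weeks and 1.06 at 2 weeks, against 2.4 and 2.17 in C57 mice. The part of RNA integrity in the strain differences was not tested.

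Tlr1 and Tlr6 were the members that passed the strain test within an age. They are adjacent protein-coding genes on chromosome 5, both on the minus strand, and their RefSeq promoters (build GRCm38.p6, the sequence of the C57BL/6 reference strain) are shown because the genes lie side by side and yet followed different strain patterns. Each line gives the 250 bases before 1 of the 2 start sites listed for the gene, chr5:64933559-64933808 for Tlr1 and chr5:64959167-64959416 for Tlr6. Capitals in Tlr1 mark GAGGAAG, the core of the sequence bound by the myeloid and B cell factor PU.1. Capitals in Tlr6 mark 2 overlapping matches, on the opposite strand, to the interferon-stimulated response element, searched as GAAA, any 2 bases and GAAA.
Tlr1 promoter: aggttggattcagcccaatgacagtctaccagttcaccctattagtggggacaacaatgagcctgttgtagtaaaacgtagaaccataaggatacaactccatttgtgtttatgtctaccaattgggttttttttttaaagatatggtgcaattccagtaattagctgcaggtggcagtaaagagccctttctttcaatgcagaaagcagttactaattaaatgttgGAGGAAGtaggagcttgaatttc
Tlr6 promoter: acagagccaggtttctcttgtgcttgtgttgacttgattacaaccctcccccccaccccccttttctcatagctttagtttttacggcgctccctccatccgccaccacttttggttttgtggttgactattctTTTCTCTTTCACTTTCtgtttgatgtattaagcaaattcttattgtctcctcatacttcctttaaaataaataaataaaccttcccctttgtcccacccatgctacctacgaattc
Searched on both strands of the same 250 bases of all 32851 promoters in the table, GAGGAAG was found in 10.6% and the interferon element in 2.98%. The second start sites of Tlr1 and Tlr6 had neither motif. Of the other members, Tlr9 held GAGGAAG and Myd88 held the interferon element, the promoters of Tlr2, Cd180 and Ly86 held neither, and Tlr4, Tlr7 and Cd14 were not examined. An NF-kB site and a TATA box were searched too, and were found in 1.41% and 12.4% of all promoters. The NF-kB site was in no examined member promoter. The TATA box was absent from both promoters shown and present at the second Tlr6 start site and in Myd88. These matches are a description of letters in the reference sequence, and the NOD and NON sequences were not analysed here.

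Tlr1, the partner of TLR2 for triacylated lipopeptides, was low in NON mice at both ages, against higher and overlapping signals in NOD and C57 mice. At 4 weeks the signals were 523, 683, 482, 427 and 382 in NOD mice, 92.5, 139.9, 74.3, 68.8 and 105 in NON mice, and 579, 457, 506, 519 and 471 in C57 mice. The signals at 2 weeks were 596, 467, 277, 496 and 393 in NOD mice, 70.0, 59.0, 64.1, 81.9 and 45.4 in NON mice, and 444, 332, 587, 314 and 356 in C57 mice. Every NON mouse lay below every NOD and every C57 mouse of its age, while the NOD and C57 signals overlapped at both ages.

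The Tlr1 means at 4 weeks were 499 ± 116 for NOD, 96.1 ± 28.4 for NON and 507 ± 47.8 for C57 mice (SD, n = 5 each), and the strains differed (limma F-test, adjusted p = 1.2e-05). The NOD mean was 5.2 times the NON mean, and the log2 difference NOD minus NON was 2.27 (SE 0.21, adjusted p = 2.6e-05). NON minus C57 was -2.32 (SE 0.21, adjusted p = 2.8e-05). At 2 weeks the means were 446 ± 119 for NOD, 64.1 ± 13.5 for NON and 407 ± 112 for C57 mice (adjusted p = 1.3e-05 by limma's F-test), and the NOD mean was 6.95 times the NON mean. The log2 difference at this age was 2.60 (SE 0.24, adjusted p = 2.4e-05) for NOD minus NON and -2.47 (SE 0.24, adjusted p = 3.6e-05) for NON minus C57. NOD minus C57 was -0.04 at 4 weeks (95% interval -0.49 to 0.41, adjusted p = 0.96 by limma) and 0.12 at 2 weeks (95% interval -0.38 to 0.63, adjusted p = 0.89). In the order of the 6 group means, the 4 of NOD and C57 came first, with overlapping signals, and NON at 4 weeks and then NON at 2 weeks came last, overlapping each other. Of all 38293 probe sets, 61 (0.159%) had NON below both other strains at both ages without overlap.

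Markers of T cells were also lower in NON mice. Averaged over both ages, 5 of 6 measured T cell markers were higher in NOD than in NON and 5 of 6 were lower in NON than in C57, and the summed T cell signal at 4 weeks was 5307 to 6782 in NOD, 3475 to 4331 in NON and 5701 to 8066 in C57 mice. At 2 weeks it was 2808 to 5741 in NOD, 904 to 2232 in NON and 3240 to 6742 in C57 mice. Such a sum, here and for the other lists, adds linear signals of different probe sets, so the brightest weigh most. It is set only against the same sum in other mice and is not a count of cells. None of the 7 measured B cell markers was called between NON and either other strain, and among 10 macrophage and monocyte markers only Ccr2 was, higher in NON than in NOD. Of 5 erythroid markers, Klf1 and Slc4a1 were higher in NON than in C57. No marker of these lists was at 0 in any mouse. A signal above 0 does not show that a transcript was present, and the study's present calls were not used. The part of cell composition in the Tlr1 difference was not tested, and in mixed leukocytes fewer cells of a type and less RNA per cell cannot be told apart. Tlr1 was read by probe set 1449049_at alone. The NOD and NON sequences under its probes were not examined, so a difference in signal is not shown to be one in RNA.

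**Figure D1:**
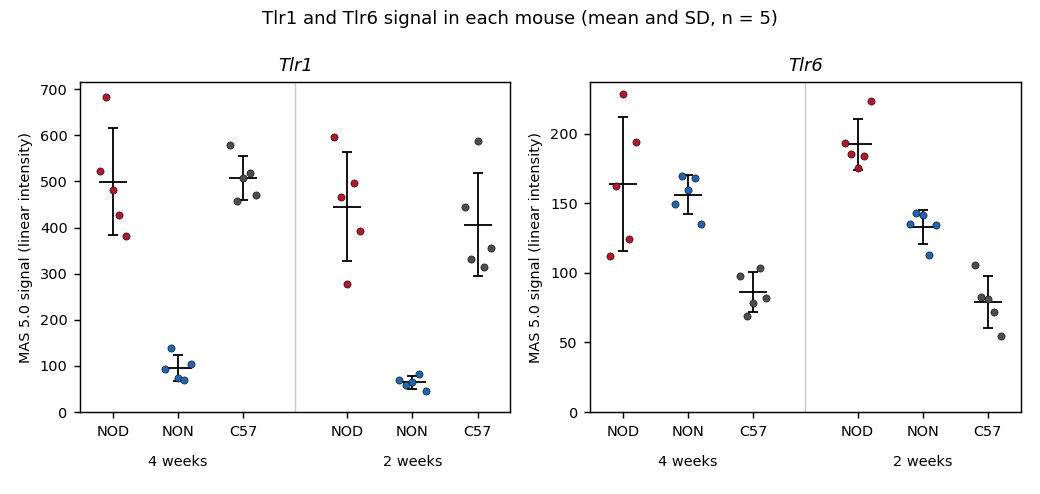
MAS 5.0 signal (linear intensity) of Tlr1 and Tlr6 in each mouse at 4 weeks (left) and 2 weeks (right), with NOD in red, NON in blue and C57 in grey. Points are mice, and the bars are the mean and SD of 5 mice. The Tlr1 signals of NON mice, 45.4 to 139.9, lie under all others of their age, and the Tlr6 signals of C57 mice, 54.4 to 105.8, lie under all NOD and NON mice of their age.

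Tlr6, the partner of TLR2 for diacylated lipopeptides, was lowest in C57 mice. At 4 weeks its signals were 112, 162, 228, 124 and 194 in NOD mice, 149, 169, 159.8, 168 and 135 in NON mice, and 98.0, 68.9, 78.6, 103 and 81.9 in C57 mice. In mice of 2 weeks the signals were 193, 186, 175, 184 and 223 in NOD mice, 135, 143, 141, 113 and 135 in NON mice, and 106, 82.4, 81.2, 72.0 and 54.4 in C57 mice. All C57 mice lay below all NOD and NON mice of their age. NOD and NON overlapped at 4 weeks, and at 2 weeks all 5 NOD mice lay above all NON mice.

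The means of Tlr6 at 4 weeks were 164 ± 48.1 for NOD, 156 ± 14.2 for NON and 86.2 ± 14.2 for C57 mice, and at 2 weeks 192 ± 18.5 for NOD, 133 ± 12.2 for NON and 79.2 ± 18.6 for C57 mice (SD, n = 5 each). The strain test passed at 2 weeks (limma F-test, adjusted p = 0.0041) and not at 4 weeks (adjusted p = 0.07). NOD minus C57 was 0.83 (SE 0.20, adjusted p = 0.069) at 4 weeks and 1.20 (SE 0.17, adjusted p = 0.0021) at 2 weeks, where the NOD mean was 2.43 times the C57 mean. NON minus C57 was 0.80 (SE 0.20, adjusted p = 0.1) at 4 weeks and 0.71 (SE 0.17, adjusted p = 0.059) at 2 weeks. NOD minus NON was 0.03 (SE 0.20, adjusted p = 0.98 by limma) at 4 weeks and 0.50 (SE 0.17, adjusted p = 0.34) at 2 weeks. The fit over all 30 mice, averaged over both ages and added after the data had been seen, gave 1.01 (SE 0.13, adjusted p = 3.4e-06) for NOD minus C57 and 0.75 (SE 0.13, adjusted p = 0.00032) for NON minus C57. NOD minus NON in this fit was 0.26 (SE 0.13, adjusted p = 0.42). In the order of the 6 means, NOD at 2 weeks came first, followed by NOD at 4 weeks, NON at 4 weeks and NON at 2 weeks, each overlapping the next, and the C57 groups came last, overlapping each other. Of all kept probe sets, 39 (0.102%) had C57 below both other strains at both ages without overlap.

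Tlr1 and Tlr6 are close relatives in sequence, yet their signals were hardly related within groups. After each group's mean was taken off, the Pearson correlation of both genes over the 30 mice was 0.07. Their neighbours on the chromosome were examined too, a comparison added after the data had been seen. Of the 5 protein-coding genes on each side of the pair, 8 of 10 had kept probe sets, and none of their 23 probe sets passed limma's strain test at 4 weeks (background 1.51%, lowest adjusted p = 0.078, 2 after adjustment when the variance was not moderated) or at 2 weeks (background 1.66%, lowest adjusted p = 0.36, 0 without moderation). At an unadjusted p under 0.05 the neighbours had 6 probe sets at 4 weeks and 0 at 2 weeks, where 13.4% and 14.1% of all kept probe sets had one. Averaged over both ages, 1 probe set of the neighbour Klf3 was called for NOD minus C57 (adjusted p = 0.024 by limma). The named genes whose log2 signals over the 30 mice were most like those of Tlr1 were Mndal, an interferon-inducible gene on chromosome 1, with r = 0.960 and r = 0.950 for its 2 probe sets, and Pigo on chromosome 4, an enzyme of GPI anchor synthesis, with r = 0.932. The Mndal signal of 1426906_at averaged 1712 for NOD, 19.7 for NON and 2580 for C57 mice at 4 weeks. For Tlr6 they were Tmem87a on chromosome 2 (r = 0.837), Zfp979 on chromosome 4 (r = 0.836) and Chchd3 on chromosome 6 (r = 0.835). These correlations take up the strain means, which the mice of a strain share, and are given as a description.

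Tlr2, which encodes the common partner of TLR1 and TLR6, passed no test. At 4 weeks its signals were 159, 173, 34.5, 206 and 254 in NOD mice, 153, 181, 229, 237 and 173 in NON mice, and 188, 177, 193, 178 and 156 in C57 mice. At 2 weeks they were 179, 212, 223, 127 and 176 in NOD mice, 123, 200.1, 219.9, 172 and 191 in NON mice, and 141, 156, 216, 224 and 159.9 in C57 mice. All groups overlapped, and the lowest signal, 34.5, came from NOD replicate 3 of 4 weeks, the mouse whose arrays correlated least with its group. The adjusted p of limma's strain test was 0.8 at 4 weeks and 0.998 at 2 weeks, with log2 differences at 2 weeks of 0.01 for NOD minus NON (95% interval -0.44 to 0.47) and 0.03 for NOD minus C57 (95% interval -0.42 to 0.48).

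Tlr4, the receptor for lipopolysaccharide, had 4 probe sets, of which 1418163_at had the highest mean. Its signals at 4 weeks were 139, 147, 47.1, 130.4 and 195 in NOD mice, 143, 121, 137, 169.8 and 143 in NON mice, and 153, 143, 140.3, 129 and 139 in C57 mice. The signals at 2 weeks were 131, 139, 170, 116 and 167 in NOD mice, 97.6, 78.0, 69.3, 97.5 and 89.2 in NON mice, and 82.6, 117, 144, 145 and 76.2 in C57 mice. The strains overlapped at 4 weeks, and at 2 weeks all NOD mice lay above all NON mice, with C57 between and overlapping both. The strain test gave an adjusted p of 0.88 at 4 weeks and 0.23 at 2 weeks, so neither age passed. As in Tlr2, NOD replicate 3 of 4 weeks was lowest of its group, at 47.1. The other 3 probe sets, 1442827_at, 1430695_at and 1418162_at, ranged from 3.8 to 204.4, fell under 50 in 4, 20 and 18 of the 30 mice, and passed no test. Within groups, the 4 Tlr4 probe sets had pairwise correlations of -0.41 to 0.24 over the 30 mice, so they did not follow each other from mouse to mouse.

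Cd14, the coreceptor that delivers lipopolysaccharide to TLR4, was lower in C57 mice than in NON mice. At 4 weeks the signals were 359, 296, 232, 604 and 522 in NOD mice, 515, 578, 560.4, 356 and 629.7 in NON mice, and 346, 292, 167, 223 and 179 in C57 mice. In mice of 2 weeks the signals were 515, 269, 237, 245 and 329.9 in NOD mice, 339, 293, 342, 374 and 226 in NON mice, and 163, 178, 271, 277 and 144 in C57 mice. At 4 weeks all NON mice lay above all C57 mice, and the other pairs of groups of 1 age overlapped. The strain test passed at neither age (limma adjusted p = 0.14 at 4 weeks and 0.34 at 2 weeks). Averaged over both ages, NON minus C57 was 0.87 (SE 0.19, adjusted p = 0.0046) and passed. NOD minus C57 was 0.64 (SE 0.19, adjusted p = 0.045), and this call was lost when any 1 of 16 of the 30 mice was left out (adjusted p up to 0.093).

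Both Tlr6 and Cd14 were lowest in C57 mice, as were, by their medians at both ages, the summed signals of 4 of the 10 marker lists (macrophages and monocytes, dendritic cells, erythroid cells, and megakaryocytes and platelets). The macrophage and monocyte sum was 14046 to 22681 in NOD, 13692 to 26350 in NON and 10167 to 15065 in C57 mice at 4 weeks, and 15683 to 20834 in NOD, 15711 to 16735 in NON and 11611 to 14347 in C57 mice at 2 weeks. Averaged over both ages, Adgre1 and Cd68 were called higher and Ccr2 lower in NOD than in C57, of 10 markers, and none was called between NON and C57. The median dendritic cell sum was 3327 in NOD, 2486 in NON and 2226 in C57 mice at 4 weeks, and 1970 in NOD, 2362 in NON and 1662 in C57 mice at 2 weeks, and 1 of 5 dendritic cell markers, Siglech, was higher in NOD than in C57 (0.72, adjusted p = 0.022 by limma). The median erythroid sum was 3428 in NOD, 4030 in NON and 1342 in C57 mice at 4 weeks, and 3032 in NOD, 4345 in NON and 1857 in C57 mice at 2 weeks. Of 5 erythroid markers, Klf1 was higher in NOD than in C57 (1.25, adjusted p = 0.035), and Klf1 and Slc4a1 were higher in NON than in C57 (1.78 and 1.89). Among 8 markers of neutrophils and their precursors, Mpo and Prtn3 were higher in NON than in C57. The part of these cells in the Tlr6 and Cd14 differences was not tested. Tlr6 was read by 1421352_at alone and Cd14 by 1417268_at alone, and the NOD and NON sequences under these probes were not examined.

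Tlr7, the sensor of single-stranded RNA, lies on the X chromosome and was higher at 4 weeks than at 2 weeks. The brightest of its 3 probe sets, 1422010_at, had at 4 weeks signals of 276, 203, 154, 255 and 309.9 in NOD mice, 253, 139.9, 211, 267 and 154 in NON mice, and 275, 294, 267, 271 and 266 in C57 mice. At 2 weeks they were 133, 167, 141, 145 and 205 in NOD mice, 113, 78.6, 94.1, 73.3 and 107 in NON mice, and 161, 144, 214, 157 and 99.6 in C57 mice. In NON and in C57 every mouse of 4 weeks lay above every mouse of 2 weeks, and in NOD the ages overlapped. At 2 weeks all NOD mice also lay above all NON mice, without passing the test (adjusted p = 0.22 by limma). The age difference on the log2 scale was 0.55 (SE 0.23, adjusted p = 0.65) in NOD, 1.03 (SE 0.24, adjusted p = 0.15) in NON and 0.82 (SE 0.19, adjusted p = 0.2) in C57, none of which passed within a strain. Averaged over the 3 strains, in the added fit on all 30 mice, it was 0.80 (SE 0.12, adjusted p = 0.00013) and passed, with the mean at 4 weeks 1.77 times that at 2 weeks.

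The other Tlr7 probe sets did not pass: the averaged age difference was 0.59 (SE 0.25, adjusted p = 0.25) for 1449640_at and 0.54 (SE 0.18, adjusted p = 0.1) for 1419848_x_at, and both together ranged from 6.1 to 139.6. Between the strains, 1422010_at was lower in NON than in C57 when both ages were averaged, at -0.55 (SE 0.15, adjusted p = 0.026). This call was lost without NON replicate 4 of 2 weeks (adjusted p = 0.056) or without C57 replicate 3 of 2 weeks (adjusted p = 0.06). The other 2 probe sets gave -0.15 and -0.01 for this difference, with adjusted p of 0.88 and 0.99 by limma.

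Tlr9, the sensor of CpG DNA, was scattered widely within groups. At 4 weeks its signals were 125, 113, 222, 91.7 and 67.8 in NOD mice, 11.9, 73.2, 90.9, 102 and 81.3 in NON mice, and 39.1, 23.1, 93.8, 25.1 and 119 in C57 mice. The signals at 2 weeks were 80.1, 59.0, 129, 97.2 and 137 in NOD mice, 111, 8.1, 68.6, 117 and 146 in NON mice, and 36.2, 83.0, 108, 82.5 and 77.0 in C57 mice. All groups overlapped, and the strain test gave an adjusted p of 0.49 at 4 weeks and 0.88 at 2 weeks (limma). The NON signals of 11.9 and 8.1 belonged to replicate 1 of 4 weeks and replicate 2 of 2 weeks, the mice with the highest Gapdh 3'/5' ratios of 3.15 and 4, and the part of RNA quality in these values was not tested. NOD minus C57 at 4 weeks was 1.06 (SE 0.49, adjusted p = 0.38), with a 95% interval of 0.01 to 2.11.

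Cd180, the TLR4-like receptor of B cells, had its lowest means in NON mice and passed no test. At 4 weeks the signals were 395, 318, 480.4, 593 and 549 in NOD mice, 243, 251, 236, 339 and 328 in NON mice, and 344, 271, 442, 416 and 648 in C57 mice. In mice of 2 weeks the signals were 251, 342, 348, 488 and 524 in NOD mice, 331, 172, 233, 322 and 346 in NON mice, and 340.3, 307, 447, 439 and 434 in C57 mice. The groups overlapped at both ages, with all NON mice at or under 346. The strain test gave an adjusted p of 0.3 at 4 weeks and 0.46 at 2 weeks, and the differences averaged over both ages were 0.58 (SE 0.17, adjusted p = 0.073) for NOD minus NON and -0.52 (SE 0.17, adjusted p = 0.07) for NON minus C57. NOD minus NON was called after quantile normalization of the arrays.

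Ly86, which encodes MD-1, the protein that holds CD180 at the cell surface, was higher at 4 weeks. Its signals at 4 weeks were 4657, 3580.1, 3584, 2722 and 2459 in NOD mice, 3736, 3319.5, 3361, 3469 and 4439.8 in NON mice, and 3645, 3586, 3394, 3339 and 2831 in C57 mice. At 2 weeks they were 3961, 2605, 1944, 2961 and 1856 in NOD mice, 1990, 2755, 1868, 1933 and 601 in NON mice, and 2654, 3071, 3015, 2516 and 2541 in C57 mice. All 4 week old NON mice lay above all 2 week old NON mice, and in NOD and C57 the ages overlapped. The age difference was 0.37 (SE 0.27, adjusted p = 0.8) in NOD, 1.14 (SE 0.36, adjusted p = 0.28) in NON and 0.28 (SE 0.15, adjusted p = 0.69) in C57. Averaged over the strains it was 0.60 (SE 0.17, adjusted p = 0.046), a call that was lost when any 1 of 21 of the 30 mice was left out (adjusted p up to 0.081). The lowest signal, 600.5 in NON replicate 5 of 2 weeks, lay apart from the others of that group (1868.2 to 2754.9), and without this mouse the NON difference was 0.79 (adjusted p = 0.28) and the averaged one 0.47 (adjusted p = 0.023).

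Myd88, the adaptor shared by nearly all Toll-like receptors, passed no test for strain or age. At 4 weeks its signals were 473, 570.2, 412, 669 and 784 in NOD mice, 586, 512, 456, 608 and 400.4 in NON mice, and 488, 509.8, 501, 648 and 632 in C57 mice. The signals at 2 weeks were 490.2, 484, 539, 459 and 531 in NOD mice, 375, 387, 421, 484 and 481 in NON mice, and 419.5, 408, 477, 516 and 420.1 in C57 mice. All strains overlapped at each age, with an adjusted p of 0.89 at 4 weeks and 0.7 at 2 weeks (limma F-test). Averaged over both ages, NOD minus C57 was 0.10 (95% interval -0.13 to 0.33) and NON minus C57 was -0.09 (95% interval -0.32 to 0.14). The averaged age difference was 0.24 (SE 0.09, adjusted p = 0.2).

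**Figure D2:**
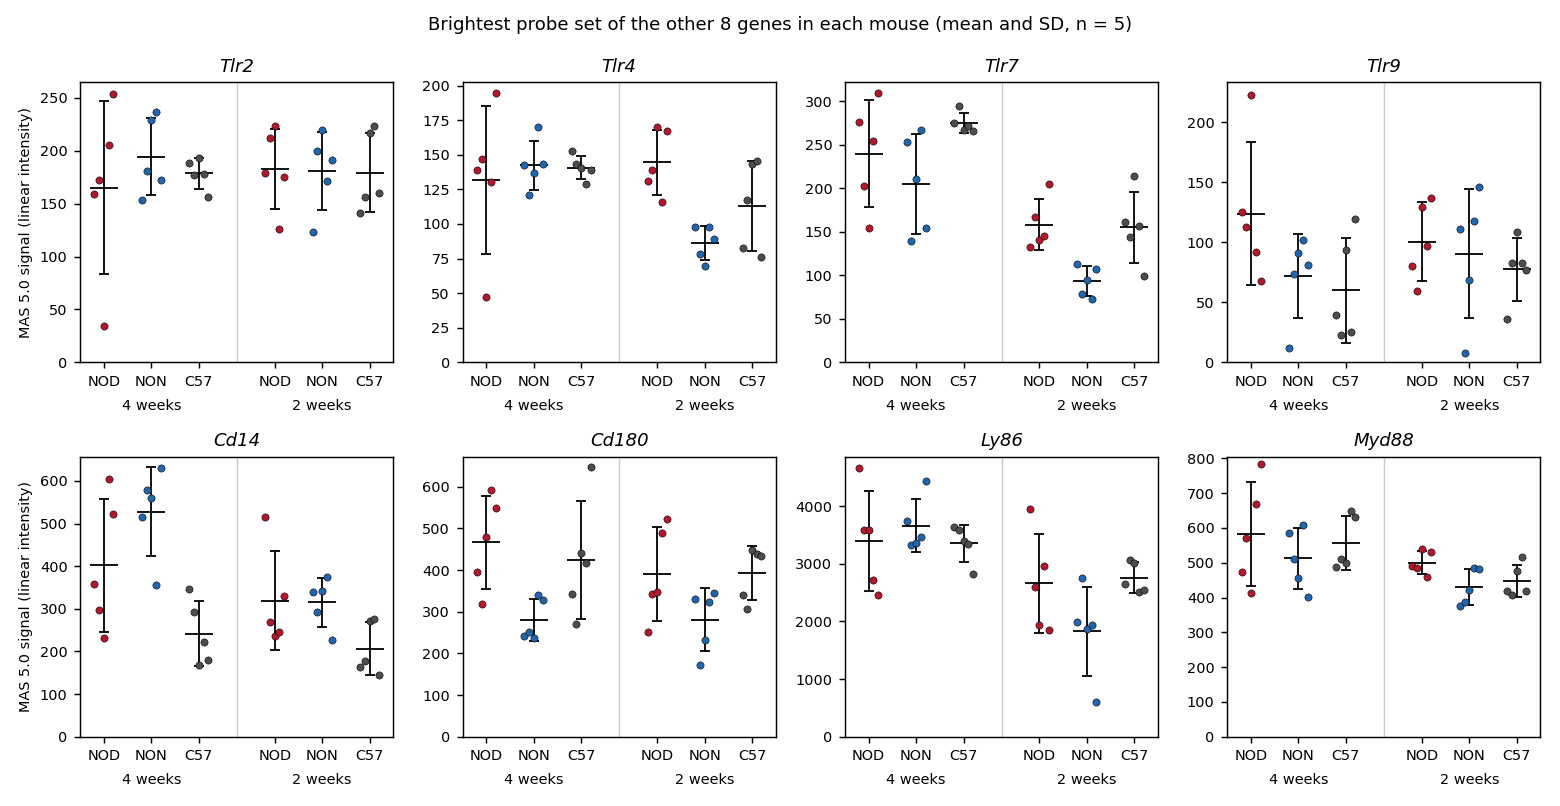
MAS 5.0 signal (linear intensity, each axis from 0) of the brightest probe set of Tlr2, Tlr4, Tlr7, Tlr9, Cd14, Cd180, Ly86 and Myd88 in each mouse, at 4 weeks (left) and 2 weeks (right) and in the strain order NOD, NON, C57. Points are mice, and the bars are the mean and SD of 5 mice. The NON signals of Tlr7 lie between 139.9 and 267 at 4 weeks and between 73.3 and 113 at 2 weeks, and the single low points of Tlr2 (34.5), Tlr9 (11.9) and Ly86 (600.5) stand apart from their groups.

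Across the 15 probe sets, the strain test called 1 at 4 weeks (Tlr1) and 2 at 2 weeks (Tlr1 and Tlr6), against 1.51% and 1.66% of all kept probe sets. At an unadjusted p under 0.05 the numbers were 4 at 4 weeks and 5 at 2 weeks, where 13.4% and 14.1% of all kept probe sets had one. NOD minus the mean of NON and C57 was called for 1 probe set at 4 weeks (background 0.804%), Tlr1, at 1.12 (SE 0.18, adjusted p = 0.0074). At 2 weeks it was called for 2 (background 0.499%), Tlr1 at 1.36 (SE 0.20, adjusted p = 0.0036) and Tlr6 at 0.85 (SE 0.15, adjusted p = 0.015). For Tlr1, NON was low and NOD overlapped C57 at both ages. For Tlr6 at 2 weeks the NOD mice lay above all mice of both controls, and the call was lost without NOD replicate 5 (adjusted p = 0.06). Of the pairs at that age, NOD minus C57 was called (1.20, adjusted p = 0.0021 by limma) and NOD minus NON was not (0.50, adjusted p = 0.34).

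Among the pairs of strains, NOD minus NON was called for Tlr1 alone at 4 weeks (background 0.582%) and at 2 weeks (0.546%). NOD minus C57 was called for none at 4 weeks (background 1.13%, and 3 at an unadjusted p under 0.05, beside 13% of all kept probe sets) and for Tlr6 at 2 weeks (0.841%). In limma's fit on all 30 mice, which called 1.94% of all probe sets for NOD minus C57 at 4 weeks, Tlr6 passed at that age (adjusted p = 0.0085). NON minus C57 was called for Tlr1 at 4 weeks (0.794%) and at 2 weeks (1.56%). Averaged over both ages, 1 probe set was called for NOD minus NON (Tlr1, background 1.68%), 2 for NOD minus C57 (Tlr6 and Cd14, 5.07%) and 4 for NON minus C57 (Tlr1 and Tlr7 lower, Tlr6 and Cd14 higher in NON, 4.5%). Leaving out any 1 of 3 mice gave 2 for NOD minus NON. NOD replicate 3 of 4 weeks, whose arrays stood apart, was among these mice, and without it Tlr7 was also called. The median log2 difference of the 15 probe sets was 0.03 at 4 weeks and 0.64 at 2 weeks for NOD minus NON, beside 0.04 and 0.05 over all probe sets. Without overlap between the groups, 1 probe set separated NOD from NON at 4 weeks and 4 at 2 weeks (background 2.62% and 2.55%), 1 separated NOD from C57 at each age (3.9% and 4.05%), and 3 at 4 weeks and 2 at 2 weeks separated NON from C57 (3.36% and 4.42%). For NOD above both controls the number was 1 at 2 weeks, Tlr6 (0.253%). These comparisons share mice, so their counts are not independent of each other.

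**Figure D3:**
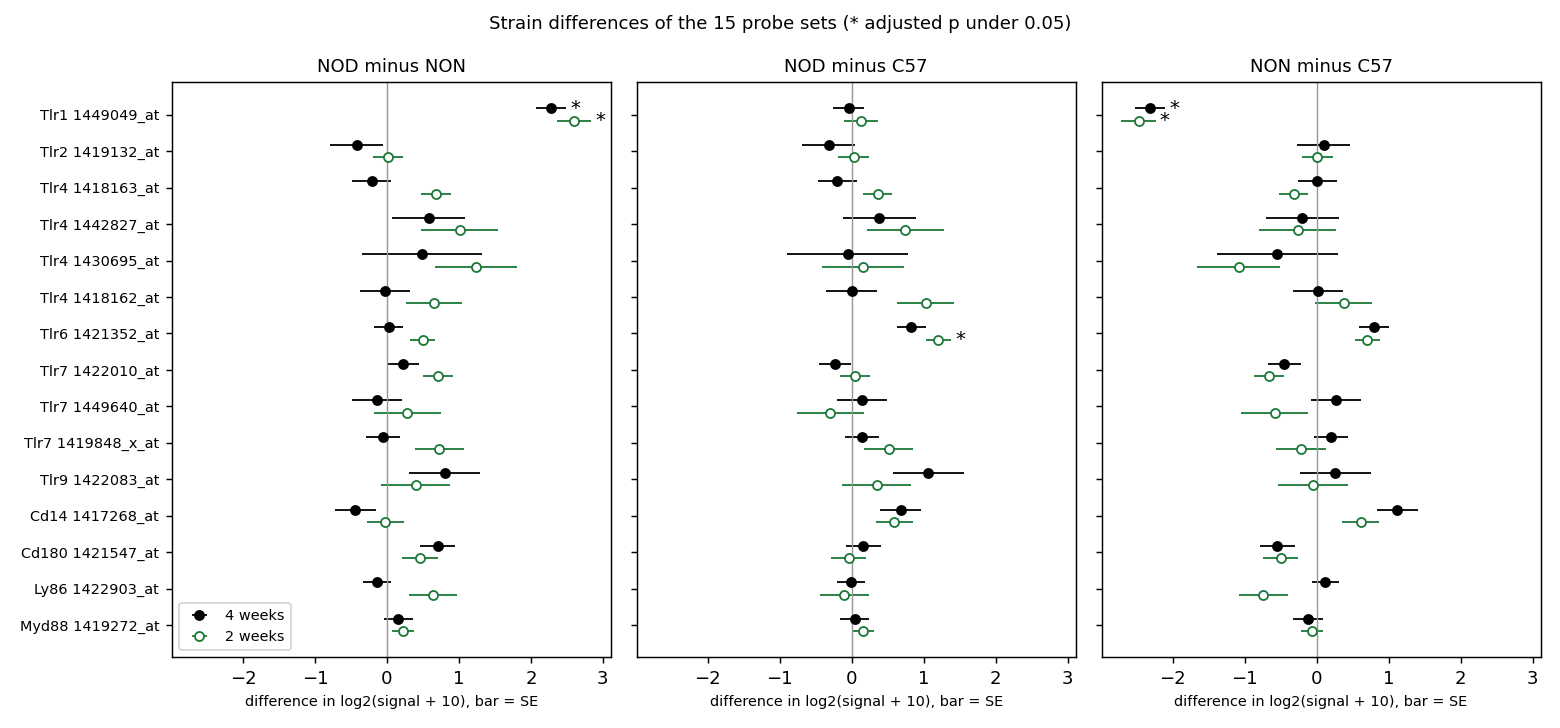
Difference in log2(signal + 10) between strains for the 15 probe sets, with NOD minus NON, NOD minus C57 and NON minus C57 in 3 panels on a common axis. Filled circles are 4 weeks, open circles 2 weeks, bars are 1 SE, and an asterisk marks an adjusted p under 0.05. The Tlr1 differences of 2.27 and 2.60 (NOD minus NON) and -2.32 and -2.47 (NON minus C57) stand off from the rest, and the Tlr6 difference of 1.20 at 2 weeks is the other one marked.

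Most members had higher means at 4 weeks than at 2 weeks, although none was called by limma within a strain. The age test called 0 of 15 probe sets in NOD (background 0.0157%), in NON (0.0601%) and in C57 (0.107%). An unadjusted p under 0.05 was seen in 1 in NOD (7.49% of all probe sets), 6 in NON (11.1%) and 2 in C57 (8.22%). At the unadjusted threshold of the study's methods, the methods' t-test called 0 of 15 in NOD (background 0.298%), 1 in NON (Tlr4 1418163_at, 0.875%) and 0 in C57 (0.593%), and after Benjamini-Hochberg adjustment it called 0 of 15 in each strain. The median age difference of the 15 probe sets was 0.18 in NOD, 0.50 in NON and 0.28 in C57, where the medians over all probe sets lay between -0.0022 and 0.027. In the fit on all 30 mice, Tlr7 (1.03, adjusted p = 0.01) and Ly86 (1.14, adjusted p = 0.03) were called in NON, where this fit called 1.46% of all probe sets. The 4 week NON mice lay above all 2 week NON mice in 3 probe sets, Tlr7 1422010_at, Ly86 and Tlr4 1418163_at, an upward separation that 1.67% of all probe sets showed, and in C57 this held for Tlr7 alone (0.88%).

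Averaged over the strains, 12 of the 15 probe sets were higher at 4 weeks and 2 were called (Tlr7 and Ly86, both higher, background 3%, of which 1.22% higher). The median difference was 0.34 for the 15 and 0.011 over all probe sets, and the share of all probe sets that were higher was not counted. Several of the 15 are probe sets of the same gene, Tlr4 or Tlr7, and are not independent genes. The age difference was not shown to differ between strains: the interaction test called 0 of 15 (background 0.00261%, lowest adjusted p = 0.71 by limma), and 1 had an unadjusted p under 0.05, beside 6.9% of all kept probe sets. That 1 was Tlr4 1418163_at, with -0.23 in NOD, 0.67 in NON and 0.33 in C57.

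Other cell type lists moved with age in the same averaged fit. All 6 T cell markers rose, as did 2 of 7 B cell markers (Cd22 and Cr2), 2 of 10 macrophage markers (Cd68 and Cd163), 1 of 5 dendritic cell markers (Itgax) and 1 of 3 NK cell markers (Gzma, 1.02, adjusted p = 0.013 by limma), while 6 of 8 markers of neutrophils and their precursors and 2 of 4 megakaryocyte markers fell. The summed T cell signal was 5307 to 6782 at 4 weeks and 2808 to 5741 at 2 weeks in NOD, and 3475 to 4331 at 4 weeks and 904 to 2232 at 2 weeks in NON mice. The part of these shifts in the Tlr7 and Ly86 differences was not tested.

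**Figure D4:**
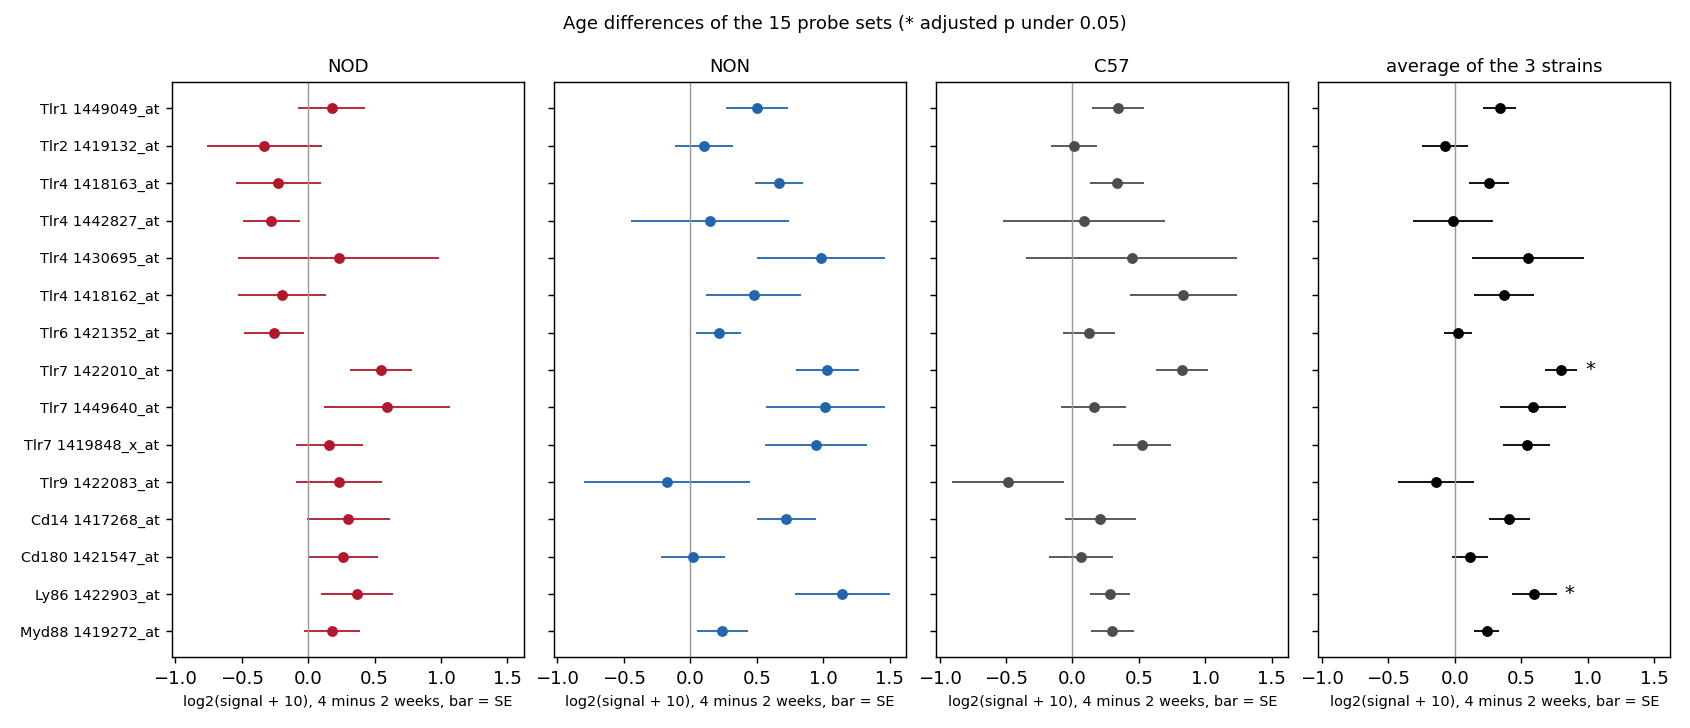
Difference in log2(signal + 10) between 4 and 2 weeks (4 minus 2) for the 15 probe sets in NOD, NON and C57, each from a fit on 10 mice, and averaged over the 3 strains in a fit on all 30 mice. Points are the differences and bars 1 SE, and an asterisk marks an adjusted p under 0.05. Most points lie right of 0, and the marks stand at Tlr7 1422010_at (0.80) and Ly86 (0.60) in the averaged panel.

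Of the rest of the pathway, 44 genes in 5 lists were followed, and 36 had a kept probe set, of which the brightest was read. With limma's strain test 0 of 36 were called at 4 weeks (2 at an unadjusted p under 0.05, 0 without moderation) and 0 of 36 at 2 weeks (8 at an unadjusted p under 0.05, 1 without moderation), and 13.4% and 14.1% of all kept probe sets had such an unadjusted p. In the fits averaged over both ages, limma called 0 of 36 for NOD minus NON (2 at an unadjusted p under 0.05, background of calls 1.68%), 3 for NOD minus C57 (8.33%, background 5.07%) and 2 for NON minus C57 (5.56%, background 4.5%). Averaged over the strains it called 2 for age (5.56%, background 3%). The pathway differences given next are averaged in this way, and their calls were not recomputed with mice left out or under other settings. None of 5 other Toll-like receptors and none of 7 inhibitors was called in the averaged fits for strain or age. Among 6 partners of ligand binding and receptor folding, Cd36 and Lbp were called. Cd36, a scavenger receptor that works with TLR2, was higher in NOD than in C57 by 0.83 (SE 0.23, adjusted p = 0.027 by limma). Lbp, the protein that binds lipopolysaccharide in serum, was lower at 4 weeks by 1.10 (log2 difference -1.10, SE 0.13, adjusted p = 4.9e-06). The Lbp means at 4 weeks were 127 for NOD, 137 for NON and 118 for C57 mice, against 289 for NOD, 265 for NON and 299 for C57 mice at 2 weeks.

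Among 11 adaptors and kinases, Map3k7, which encodes the kinase TAK1 downstream of MyD88, was lower in NOD than in C57 (log2 difference -0.81, SE 0.17, adjusted p = 0.004) and lower in NON than in C57 (-0.58, SE 0.17, adjusted p = 0.049). Its mean at 2 weeks was 159 for NOD, 222 for NON and 330.5 for C57 mice. Irak2, a kinase of the MyD88 complex, was lower in NOD than in C57 by a log2 difference of -0.40 (SE 0.12, adjusted p = 0.047). Of 7 transcription factors, Irf7, which drives interferon genes after TLR7 and TLR9 signals, was lower in NON than in C57 (-0.50, SE 0.15, adjusted p = 0.047) and higher at 4 weeks than at 2 weeks (0.67, SE 0.12, adjusted p = 0.00088). Its mean at 4 weeks was 284 for NOD, 266 for NON and 428 for C57 mice, and at 2 weeks 181 for NOD, 177 for NON and 231 for C57 mice.

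Within groups, some members followed each other from mouse to mouse. With group means taken off, the brightest probe sets of Tlr2 and Tlr4 had a Pearson correlation of 0.79 over the 30 mice, and 0.56 without NOD replicate 3 of 4 weeks, the mouse low in both. Tlr4 and Tlr7 had 0.64 (0.56 without that mouse), Tlr2 and Myd88 0.60 (0.46), and Tlr4 and Myd88 0.59 (0.45). Tlr9 and Cd180 had 0.58 and Tlr1 and Ly86 0.52, both the same without it. The dimmer Tlr4 probe sets 1442827_at, 1430695_at and 1418162_at had 0.04, -0.23 and -0.07 with Tlr2. The dimmer Tlr7 probe sets 1449640_at and 1419848_x_at had 0.29 and -0.20 with Tlr4 1418163_at. They had 0.19 and -0.09 with the brightest Tlr7 probe set and -0.03 with each other. Cd180 and Ly86, whose proteins form a complex, had -0.50, and Ly86 and Myd88 had -0.49. The pairs of brightest probe sets named here were picked as those with the highest and lowest correlations. Each mouse had its own pair of arrays, and array quality and cell mixture touch all genes of a mouse, so the correlations are given as a description only.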

How the data were processed

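RNA of spleen leukocytes from 30 mice was measured on 60 Affymetrix arrays, a 430A and a 430B array for each mouse. The authors computed the deposited intensity values with MAS 5.0 and scaled each array globally. Their methods name a target of 100, while the deposited arrays have a 2% trimmed mean of 250 to 250.1, so only relative values are read. The study's present and marginal calls were not used. Control probe sets (64) were dropped and 100 probe sets shared by both arrays were counted once. A probe set was kept with a signal of at least 50 in at least 5 of 30 mice. Values were analysed as log2(signal + 10) with limma 3.58.1 in R 4.3.3 and Benjamini-Hochberg adjustment, separately for each age (strain) or strain (age), and over all 30 mice for the interaction and averaged contrasts. The averaged contrasts and the neighbours of Tlr1 were added after the data had been seen. Of 45037 probe sets, 34945 are annotated with 1 gene, 932 with several and 9160 with none. All values were computed by scripts, of which only the limma fits for strain and age were tested on simulated data. Values per mouse are given for the brightest probe set of each gene and for those that passed. The members and lists were chosen with earlier results of these data known. Replicates are labelled as separate samples, so p-values measure the spread between these samples. Alternatives were other pseudocounts and filters, quantile normalization, a replicate block, a joint fit, one-way ANOVA, the methods' t-test (counted at their threshold, p under 0.001 without correction, and after Benjamini-Hochberg) and leaving out each mouse. The number of arrays limits the precision.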

Additional observations from a re-analysis of the deposited data

Results flagged for a closer look

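In 4 of 90 groups of 5 mice, 1 signal lay far below the rest by Dixon's criterion, and chance gives about 1 in 20. Tlr2 was 34.5 in NOD replicate 3 of 4 weeks, where the other 4 NOD mice had 159.4 to 253.7. Tlr6 was 112.5 in NON replicate 4 of 2 weeks, where the others had 134.5 to 142.8. Tlr9 was 11.9 in NON replicate 1 of 4 weeks, where the others had 73.2 to 102.2. Ly86 was 600.5 in NON replicate 5 of 2 weeks, where the others had 1868.2 to 2754.9.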

How the results depend on the processing

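Over 558 recomputed values of 20 gene differences, 509 kept their direction and their side of the threshold, 46 lost and 3 gained a call, and 0 changed sign. The strain test at 4 weeks called 2 member probe sets with a filter of 100 and by one-way ANOVA, and 3 in the fit on all 30 mice, against 1. That fit called 2 for age in NON, against 0. NOD against both controls at 2 weeks gave 1 with the replicate block, against 2, and 1 to 2 with single mice left out. Averaged over ages, NOD minus NON gave 2 after quantile normalization and with the block, against 1 (1 to 2 with single mice left out). NOD minus C57 gave 1 without a filter, after quantile normalization and with the block, against 2 (1 to 2). NON minus C57 gave 4 to 5 under these alternatives, against 4 (3 to 5 with single mice left out). The averaged age difference gave 1 with a pseudocount of 1 and without a filter, against 2 (1 to 3). Same-numbered mice correlated by -0.149 to 0.151 over 9 pairs of groups. For NOD at 4 weeks and NOD at 2 weeks their mean correlation was 0.069, against -0.017 for mice of different numbers. For NON at both ages it was -0.0096 against 0.0028, and for NOD and NON at 4 weeks -0.0026 against 0.0011. In all remaining pairs of groups the same-numbered mean was the higher one. Whether the replicate numbers pair the mice was not tested.

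Over all probe sets, the strain test at 4 weeks called 578, against 367 with the block, 960 in the joint fit and at least 381 with a mouse left out, and at 2 weeks 635, against 993 in the joint fit. NOD against both controls at 4 weeks called 308, against 201, 570 and at least 164 in the same order. Age in NOD called 6, against 11 (pseudocount 50), 0 (block), 56 (joint fit), 1 (the methods' t-test after Benjamini-Hochberg) and 1 to 23 with a mouse left out. Age in NON called 23, against 11 and 117 (pseudocounts 1 and 50), 69 (filter of 100), 0 (block), 560 (joint fit), 75 (the methods' t-test after Benjamini-Hochberg) and at least 3 with a mouse left out. Age in C57 called 41, against 89 (pseudocount 50), 65 (filter of 100), 1 (block), 176 (joint fit) and 16 to 91 with a mouse left out. At the methods' own unadjusted threshold, a count added after the data had been seen, that t-test called 114 in NOD, 335 in NON and 227 in C57. The interaction called 1, against 0 (filter of 100) and at most 3 with a mouse left out. The cause of these shifts was not tested.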
